A study of Mus musculus with 12 samples.

Results

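Inflammatory cytokines and the genes that feed back on NF-kB were followed in GL261 tumours from mice given temozolomide, an antibody against PD-1, or both. The 9 genes are the cytokine genes Il1a, Il1b, Tnf, Il6 and Il12b, the receptor antagonist gene Il1rn, the feedback inhibitor genes Nfkbia and Tnfaip3, and the kinase gene Map3k14. They were chosen by symbol: a probe set counted when the array's annotation named that 1 symbol and no other. All 9 were found, each with 1 such probe set, among 22180 genes on the array. By the annotation, Il1a, Il1b and Il1rn lie on chromosome 2, Il6 on 5, Tnfaip3 on 10, Il12b and Map3k14 on 11, Nfkbia on 12 and Tnf on 17. No filter on low values was applied.

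GL261 is a mouse glioma line that grows in the brains of immunocompetent C57BL/6 mice. Per the labels, male animals of that strain, 8 weeks old, received the cells orthotopically, and tumour RNA was isolated on day 16. The 12 arrays fall into 4 groups of 3: Combination (TMZ plus Anti-PD-1), TMZ (temozolomide, an alkylating drug, 30 mg/kg into the peritoneum), Anti-PD-1 (an antibody against the T cell checkpoint receptor, given intravenously at 10 mg/kg with 2 injections per week) and Control. All 4 groups carried the same implanted line. The labels do not say what Control animals received, on which days the agents were given, or whether each array came from its own mouse, so p-values measure the spread between arrays, which may be technical.

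NF-kB is a family of transcription factors held inactive in the cytoplasm by inhibitor proteins. Signals from IL-1, TNF and Toll-like receptors destroy the inhibitor, and NF-kB then switches on cytokine genes together with genes that shut the signal down again. Nfkbia (the inhibitor IkB-alpha) and Tnfaip3 (the ubiquitin-editing enzyme A20) are such feedback genes. Map3k14 encodes NIK, the kinase of a separate, slower route that matures the NF-kB subunit encoded by Nfkb2. In brain tumours these cytokines are made largely by microglia and by macrophages that enter from the blood.

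The 130 bases that precede the start site are shown for 6 members, to set the inducible feedback and cytokine promoters beside that of Map3k14. They are RefSeq sequences of build GRCm38.p6, read 5′ to 3′ on the gene's own strand. Capitals mark the kB consensus, the site NF-kB binds, and the letters TATAAA of the TATA box, both searched on both strands.
Il6, chr5:30012984-30013113, plus strand: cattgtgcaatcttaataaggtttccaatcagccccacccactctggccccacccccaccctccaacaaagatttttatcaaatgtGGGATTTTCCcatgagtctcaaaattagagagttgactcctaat
Nfkbia, chr12:55492648-55492777, minus strand: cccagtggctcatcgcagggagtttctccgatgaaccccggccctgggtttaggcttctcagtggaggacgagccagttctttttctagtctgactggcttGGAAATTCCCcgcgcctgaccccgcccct
Tnfaip3, chr10:19015411-19015540, minus strand: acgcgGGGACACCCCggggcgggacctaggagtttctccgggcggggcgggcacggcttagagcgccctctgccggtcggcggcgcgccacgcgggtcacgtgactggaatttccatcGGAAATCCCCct
Tnf, chr17:35202008-35202137, minus strand: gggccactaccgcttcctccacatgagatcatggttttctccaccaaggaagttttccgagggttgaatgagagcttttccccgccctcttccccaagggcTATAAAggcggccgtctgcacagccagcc
Il1b, chr2:129371140-129371269, minus strand: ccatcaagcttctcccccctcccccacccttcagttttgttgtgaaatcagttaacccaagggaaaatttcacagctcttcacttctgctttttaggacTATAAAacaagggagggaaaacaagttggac
Map3k14, chr11:103267402-103267531, minus strand: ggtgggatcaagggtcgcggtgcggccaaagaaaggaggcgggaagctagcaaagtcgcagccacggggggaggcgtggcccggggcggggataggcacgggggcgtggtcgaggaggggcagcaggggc
The search covered 300 bases per promoter, 250 before the start site and 50 after it. The 9 members have 12 such windows, since Tnfaip3 and Il1rn have more than 1. Il6 held 1 match to the kB consensus, 44 bases before the start. Nfkbia held 1, starting 29 bases before it. Tnfaip3 held 2 in the window whose stretch is shown, starting 125 and 12 bases before its start. The other Tnfaip3 window held 0. No other member had a match, and 4.51% of the 32851 promoter windows in the table had one. Il1a, Il1b and Tnf carry the TATA letters 32, 31 and 29 bases before their start sites, and 13.6% of all windows hold these letters somewhere. Il1rn, Nfkbia and Tnfaip3 hold them elsewhere in their windows, outside the stretches shown. Map3k14 holds neither motif, and the same is true of the cytokine gene Il12b, whose stretch is not shown. A match is a stretch of letters and was not tested as a binding site, and these windows leave out more distant enhancers.

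None of the 9 genes passed the threshold in any comparison with all 12 arrays, although most of their mean signals were lower after treatment. On the log2 scale, 9 of 9 members were below Control in Combination, 8 of 9 in TMZ and 9 of 9 in Anti-PD-1. The median differences were -0.15, -0.16 and -0.19, beside medians over all genes of 0.00, 0.01 and 0.01. Below Control were 49.8%, 47.9% and 47.6% of all genes in the same 3 comparisons. The 3 comparisons share the Control arrays, so their signs are not independent. Tests are limma's moderated tests with Benjamini-Hochberg adjustment over all 22180 genes and a threshold of 0.05 unless said otherwise. Differences in log2 signal are given with a standard error (SE) or a 95% interval, and group means with a standard deviation (SD).

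Signals were low for most of these genes. As a rough mark of the array's background, 1390 olfactory and vomeronasal receptor genes, which brain tumours are not known to use, had a median log2 signal of 2.76 and a 95th percentile of 4.87. Nfkbia and Tnfaip3 lay above that 95th percentile on 12 of 12 arrays and Map3k14 on 9. Il1rn lay above it on 4 arrays and Tnf on 1, whereas Il1a, Il1b, Il6 and Il12b did so on 0. Il6 averaged 2.37, under the receptor median. Probe sets differ in how brightly they report the same amount of RNA, so the mark is approximate. Small differences in the 4 dimmest cytokine genes, and in Tnf, may not be measurable on this array.

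**Figure D1:**
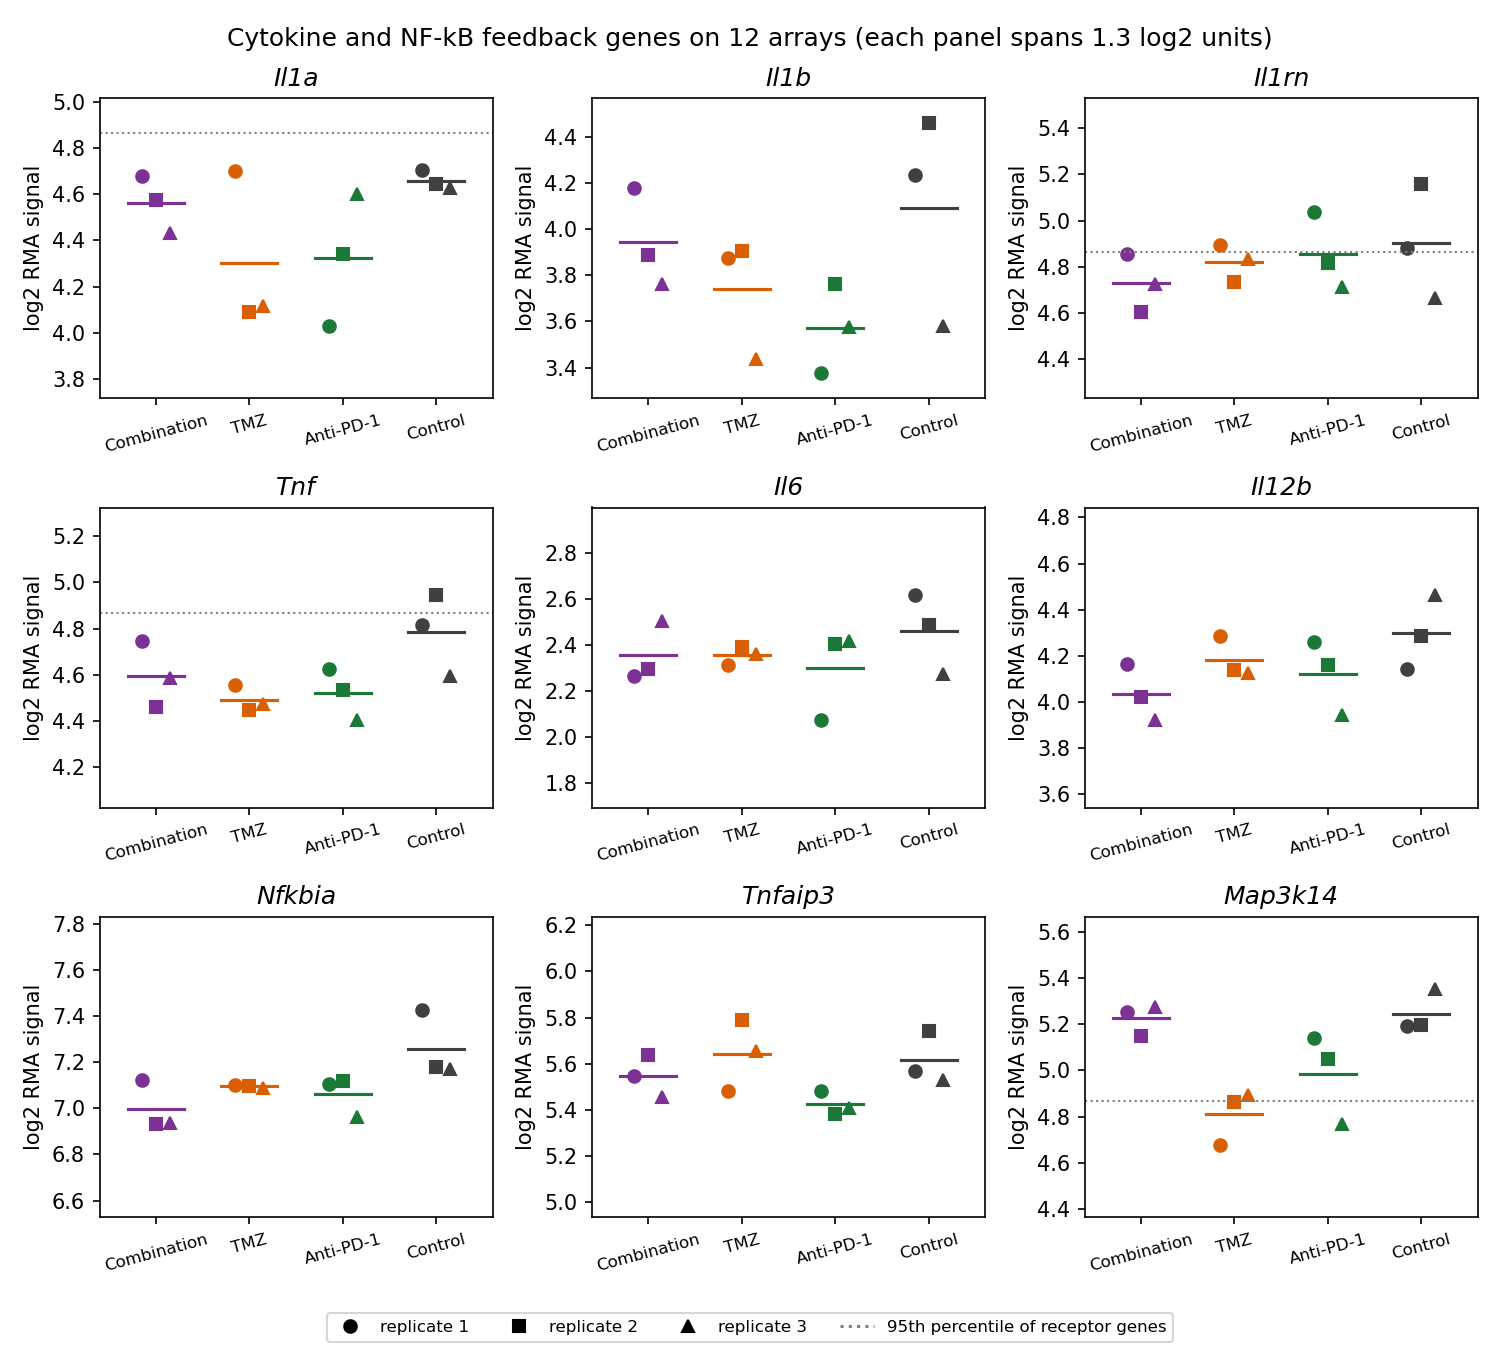
Log2 RMA signal of the 9 genes (y axis, 1.3 log2 units in every panel) in the Combination, TMZ, Anti-PD-1 and Control groups. Each point is 1 array, its shape gives the replicate number, horizontal lines are group means, and the dotted line is the 95th percentile of receptor genes (4.87) where it falls in the panel. Map3k14 is lower on the TMZ arrays (4.68 to 4.89) than on the Combination (5.15 to 5.27) and Control arrays (5.19 to 5.35).

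Il1a encodes IL-1 alpha, an alarm cytokine that cells release when they are damaged (probe set 17391554). Its log2 signal was 4.68, 4.57 and 4.43 in Combination replicates 1 to 3, 4.70, 4.09 and 4.12 in TMZ, 4.03, 4.34 and 4.60 in Anti-PD-1, and 4.71, 4.65 and 4.63 in Control. The Control arrays lay close together, and 7 of 9 treated arrays fell below all of them. Only the Anti-PD-1 arrays were all below Control, with TMZ replicate 1 and Combination replicate 1 inside the Control range. The log2 differences from Control were -0.10 ± 0.17 in Combination, -0.36 ± 0.17 in TMZ and -0.34 ± 0.17 in Anti-PD-1 (SE; limma adjusted p = 0.864, 0.45 and 0.402). The TMZ difference was -0.56 without TMZ replicate 1, and the Anti-PD-1 difference was -0.19 without Anti-PD-1 replicate 1.

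Il1b encodes IL-1 beta, the main secreted IL-1 of myeloid cells, which must be cut by caspase-1 to become active (probe set 17391565). The log2 signal was 4.18, 3.89 and 3.76 in Combination, 3.87, 3.90 and 3.44 in TMZ, 3.38, 3.76 and 3.57 in Anti-PD-1, and 4.23, 4.46 and 3.58 in Control. Control replicates 1 and 2 were the highest of the 12 arrays, while Control replicate 3 lay among the treated arrays. The spread within Control (SD 0.46, n = 3) was the widest of any member in any group. The differences from Control were -0.15 ± 0.21 in Combination, -0.35 ± 0.21 in TMZ and -0.52 ± 0.21 in Anti-PD-1 (SE; limma adjusted p = 0.826, 0.561 and 0.303). The Anti-PD-1 difference changed with the Control arrays used and with a covariate for neuron content. Without Control replicate 3 it was -0.77 ± 0.17 and passed (limma adjusted p = 0.0381), and without Control replicate 2 it was -0.34. With the neuron marker score as a covariate it was -0.27, but that score was higher on every Anti-PD-1 array than on any Control array. In TMZ the difference was -0.61 without Control replicate 3, -0.17 without Control replicate 2, -0.20 without TMZ replicate 3 and -0.20 with the covariate.

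Tnf encodes tumour necrosis factor, which both activates NF-kB and is switched on by it (probe set 17344309). Its log2 signal was 4.74, 4.46 and 4.59 in Combination, 4.56, 4.45 and 4.47 in TMZ, 4.62, 4.53 and 4.41 in Anti-PD-1, and 4.81, 4.94 and 4.59 in Control. All 3 TMZ arrays lay below all 3 Control arrays, by a narrow gap to Control replicate 3, and the other groups overlapped Control. Of the 12 arrays, only Control replicate 2 lay above the receptor mark of 4.87, so differences in Tnf may not be measurable. The differences from Control were -0.19 ± 0.10 in Combination, -0.29 ± 0.10 in TMZ and -0.26 ± 0.10 in Anti-PD-1 (SE; limma adjusted p = 0.502, 0.312 and 0.275). Taking the mean of the 3 treated groups, Tnf was at -0.25 ± 0.08 (limma adjusted p = 0.177). Without Control replicate 3 that difference was -0.34 ± 0.08 and passed the threshold (limma adjusted p = 0.0485), and without Control replicate 2 it was -0.17.

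Il6 encodes interleukin-6, which drives acute-phase and STAT3 responses (probe set 17435725). Its log2 signal lay between 2.26 and 2.50 in Combination, 2.31 and 2.39 in TMZ, 2.08 and 2.42 in Anti-PD-1, and 2.27 and 2.61 in Control. All groups overlapped at this background level. The differences from Control were -0.10, -0.10 and -0.16 in Combination, TMZ and Anti-PD-1, each with an SE of 0.11 (limma adjusted p = 0.759, 0.773 and 0.559).

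Il12b encodes p40, the subunit shared by IL-12 and IL-23, cytokines that act on T cells and natural killer cells (probe set 17248654). The log2 signal was 4.17, 4.02 and 3.92 in Combination, 4.29, 4.14 and 4.13 in TMZ, 4.26, 4.16 and 3.95 in Anti-PD-1, and 4.14, 4.29 and 4.46 in Control. Here Control replicate 3 was the highest of the 12 arrays, whereas for Il1b it was the lowest Control array. The Combination difference was -0.26 ± 0.10 and its arrays overlapped Control (SE; limma adjusted p = 0.372). In TMZ and Anti-PD-1 the differences were -0.11 and -0.18 (limma adjusted p = 0.727 and 0.492), and the Anti-PD-1 value was -0.09 without Control replicate 3 or without Anti-PD-1 replicate 3.

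Il1rn encodes the IL-1 receptor antagonist, which occupies the IL-1 receptor without signalling (probe set 17367686). Its log2 signal averaged 4.73 ± 0.13 in Combination, 4.82 ± 0.08 in TMZ, 4.86 ± 0.17 in Anti-PD-1 and 4.90 ± 0.25 in Control (SD, n = 3 each). All treated groups overlapped Control. Of the treated arrays, only Combination replicate 2, at 4.60, lay below the lowest Control array, 4.67. The differences from Control were -0.17, -0.08 and -0.05 in Combination, TMZ and Anti-PD-1 (limma adjusted p = 0.623, 0.851 and 0.906), and the last 2 were above 0 without Control replicate 2 (0.05 and 0.08). The Anti-PD-1 value was also above 0 without Anti-PD-1 replicate 3 (0.03).

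Nfkbia was the brightest member and the 1 gene of the 9 for which every treated array lay below every Control array (probe set 17281219). Its log2 signal was 7.12, 6.93 and 6.94 in Combination, 7.10, 7.10 and 7.09 in TMZ, 7.11, 7.12 and 6.96 in Anti-PD-1, and 7.43, 7.18 and 7.17 in Control. The gap was narrow, from 7.12 on the highest treated array to 7.17 on the lowest Control array, and Control replicate 1 stood above the other Control arrays. All 9 treated arrays lay below all 3 Control arrays in 1.87% of all genes. The differences from Control were -0.26 ± 0.08 in Combination, -0.16 ± 0.08 in TMZ and -0.19 ± 0.08 in Anti-PD-1, which are signals 1.20-fold, 1.12-fold and 1.14-fold lower and did not pass (SE; limma adjusted p = 0.276, 0.496 and 0.336). For the mean of the 3 treated groups the difference was -0.21, with a 95% interval from -0.35 to -0.06 (limma adjusted p = 0.178). Without Control replicate 1 it was -0.12, and the TMZ and Anti-PD-1 differences were -0.08 and -0.11.

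Tnfaip3 encodes A20, which removes the ubiquitin chains that carry the NF-kB signal (probe set 17239597). The log2 signal was 5.55, 5.64 and 5.46 in Combination, 5.48, 5.79 and 5.66 in TMZ, 5.48, 5.38 and 5.41 in Anti-PD-1, and 5.57, 5.74 and 5.53 in Control. TMZ replicate 2 was the highest array, and all 3 Anti-PD-1 arrays lay below Control. The differences from Control were -0.07 ± 0.09 in Combination, 0.03 ± 0.09 in TMZ and -0.19 ± 0.09 in Anti-PD-1 (SE; limma adjusted p = 0.814, 0.935 and 0.377), and the Anti-PD-1 value was -0.10 with the neuron marker score as a covariate. The TMZ arrays lay above the Anti-PD-1 arrays by a margin too small to show at this rounding, as did 4.38% of all genes, with a difference of 0.22 ± 0.09 that did not pass (SE; limma adjusted p = 1). The TMZ value against Control was -0.05 without TMZ replicate 2 and -0.01 without Control replicate 3.

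Map3k14 had the smallest p-value of the 9 in the test for any difference among the 4 groups, and its mean was lower after either single agent than after both or in Control (probe set 17270453). Its log2 signal was 5.25, 5.15 and 5.27 in Combination, 4.68, 4.87 and 4.89 in TMZ, 5.14, 5.05 and 4.77 in Anti-PD-1, and 5.19, 5.19 and 5.35 in Control. The arrays not above the receptor mark of 4.87 were TMZ replicates 1 and 2 and Anti-PD-1 replicate 3. TMZ replicate 2 equals the mark at this rounding. The single-agent differences therefore reach down to the background mark. The Combination arrays overlapped Control and lay above every TMZ and every Anti-PD-1 array, as did 3.81% and 4.87% of all genes. The TMZ arrays lay below Control by the largest margin of any member in that comparison, at -0.43 ± 0.10 (SE), a 1.35-fold lower signal (limma adjusted p = 0.141). In Anti-PD-1 the difference was -0.26 ± 0.10 (limma adjusted p = 0.272), and in Combination it was -0.02 ± 0.10 with a 95% interval from -0.24 to 0.20 (limma adjusted p = 0.958). Against TMZ, Combination was at 0.41 ± 0.10, and against Anti-PD-1 at 0.24 ± 0.10, neither past the threshold (limma adjusted p = 1 for both). The F test over the 4 groups gave an unadjusted p of 0.00255 and an adjusted p = 0.218 in limma. It called 0 members and 0.00451% of all genes, and Map3k14 alone of the 9 had an unadjusted p under 0.05, beside 10.1%. Its TMZ difference kept its sign without any 1 array, between -0.48 and -0.37, and was -0.38 without Control replicate 3. The Anti-PD-1 values rest more on 1 array: without Anti-PD-1 replicate 3, Anti-PD-1 minus Control was -0.15 and Combination minus Anti-PD-1 was 0.13.

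Counts over the 9 members can be set against all genes. In Combination minus Control, limma called 0 members and 0% of all genes, and 2 members (Il12b and Nfkbia) had an unadjusted p under 0.05, beside 11.6% of all genes. In TMZ minus Control it called 0 members and 0.0992% of all genes, and 2 members (Tnf and Map3k14) had an unadjusted p under 0.05, beside 11.3% of all genes. In Anti-PD-1 minus Control it called 0 members and 0.293% of all genes, and 4 members (Il1b, Tnf, Nfkbia and Map3k14) had an unadjusted p under 0.05, beside 13.5%. For the mean of the 3 treated groups minus Control it called 0 members and 0.888% of all genes, with 3 members (Tnf, Nfkbia and Map3k14) under 0.05 unadjusted, beside 15.5%. The threshold was therefore passed by few genes of any kind with 3 arrays per group.

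Arrays of a treated group all lay below all Control arrays for 1 member in Combination (Nfkbia), beside 7.82% of all genes. They did so for 3 members in TMZ (Tnf, Nfkbia and Map3k14), beside 6.81%, and for 4 in Anti-PD-1 (Il1a, Nfkbia, Tnfaip3 and Map3k14), beside 8.33%. No treated group lay wholly above Control for any member, where 8.98%, 8.19% and 10.3% of all genes did.

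**Figure D2:**
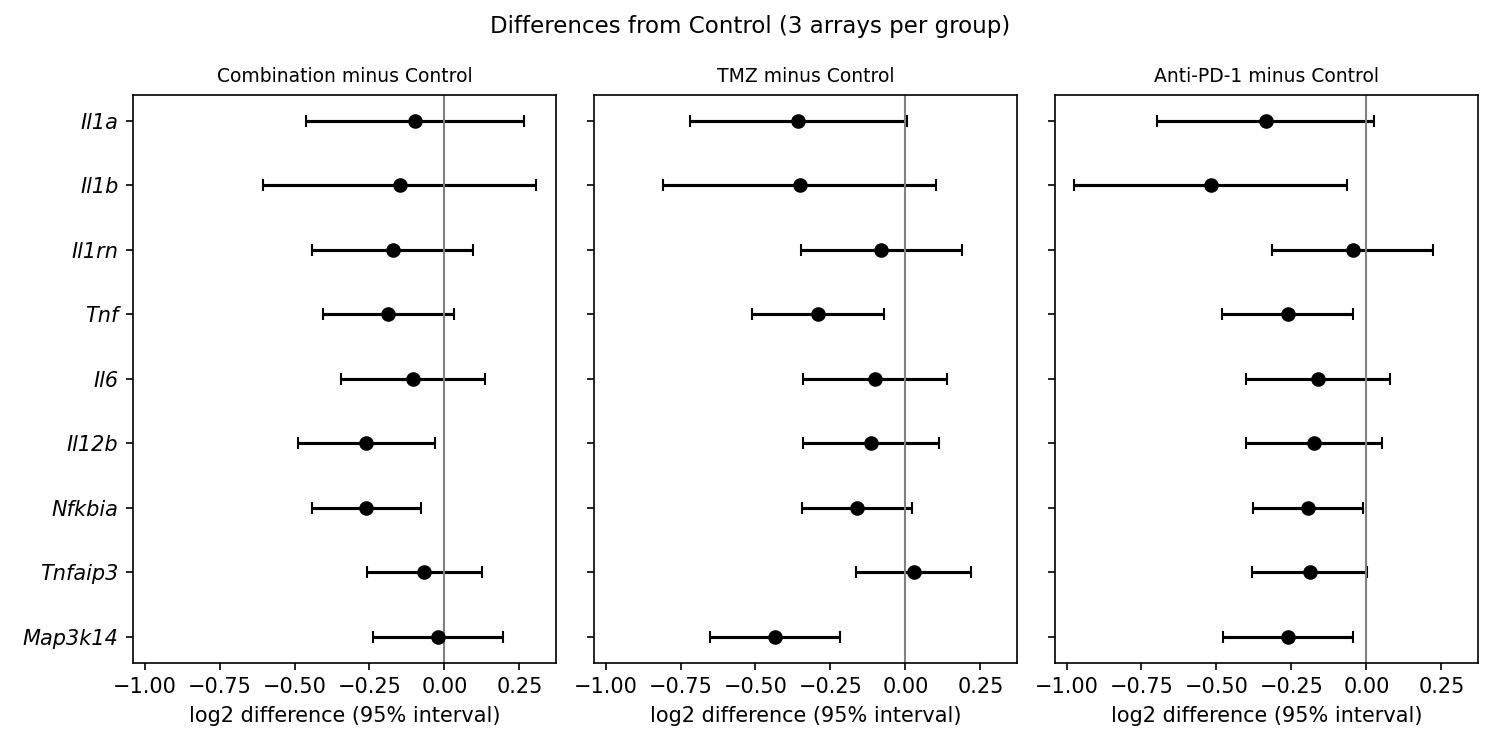
Log2 differences of the 9 genes from Control in Combination, TMZ and Anti-PD-1 (x axis; points are limma estimates, bars 95% intervals, n = 3 arrays per group). Nearly all points lie left of 0, 8 intervals exclude 0 (Il12b and Nfkbia in Combination, Tnf and Map3k14 in TMZ, Il1b, Tnf, Nfkbia and Map3k14 in Anti-PD-1), and none passed after adjustment over all genes.

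Combination was compared with each single agent to see what the second agent added. Limma called 0 members and 0% of all genes against TMZ, against Anti-PD-1, and between the single agents. Unadjusted p-values under 0.05 were seen for Map3k14 in both Combination comparisons and for Tnfaip3 between TMZ and Anti-PD-1, beside 4.19%, 4.91% and 4.51% of all genes. Member differences ranged from -0.15 to 0.41 for Combination minus TMZ and from -0.13 to 0.37 for Combination minus Anti-PD-1.

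The interaction asks whether the effect of the antibody differs with and without TMZ, computed by subtracting what Anti-PD-1 did relative to Control from what Combination did relative to TMZ. A positive value means that the Combination signal lay above the sum of the single effects. It was above 0 for 8 of 9 members and below 0 for 1, beside 53.8% of all genes below 0, with a median of 0.16 beside -0.02 over all genes. A gene lowered by a like amount in every treated group also gets a positive value, since Control enters the term with a plus sign. These signs are therefore not independent of the differences from Control. Map3k14 had an interaction of 0.67 ± 0.14 (95% interval 0.37 to 0.98), Il1b 0.72 ± 0.29, Il1a 0.59 ± 0.23 and Tnf 0.37 ± 0.14 (SE). These 4 had unadjusted p-values under 0.05, beside 8.92% of all genes, and limma called none of them (adjusted p = 0.2, 0.501, 0.484 and 0.471). Limma called 0.00451% of all genes for this term. For Il1a, Il1b and Tnf the Combination mean lay between the single agents and Control, at 4.56, 3.94 and 4.60. The other 5 members ranged from -0.05 for Il1rn to 0.16 for Il6. Markers of some cell types had interactions of the same sign. Above 0 were 10 of 11 microglia markers (median 0.36) and 11 of 12 monocyte and macrophage markers (median 0.34). So were 7 of 7 markers of dividing cells (median 0.99). Unadjusted p-values under 0.05 were seen for 7, 3 and 7 of them. All 8 endothelial markers were below 0 (median -0.32). Other lists were mixed, with 4 of 9 dendritic cell markers above 0 (median -0.01), 4 of 10 neutrophil markers (-0.09) and 2 of 12 neuron markers (-0.11). For T cells it was 5 of 9 (0.11), for B cells 4 of 5 (0.16), for astrocytes 5 of 8 (0.10) and for oligodendrocytes 3 of 7 (-0.005). The part of these cell types in the member interactions was not tested. With the neuron marker score as a covariate the Il1b interaction was 0.41.

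**Figure D3:**
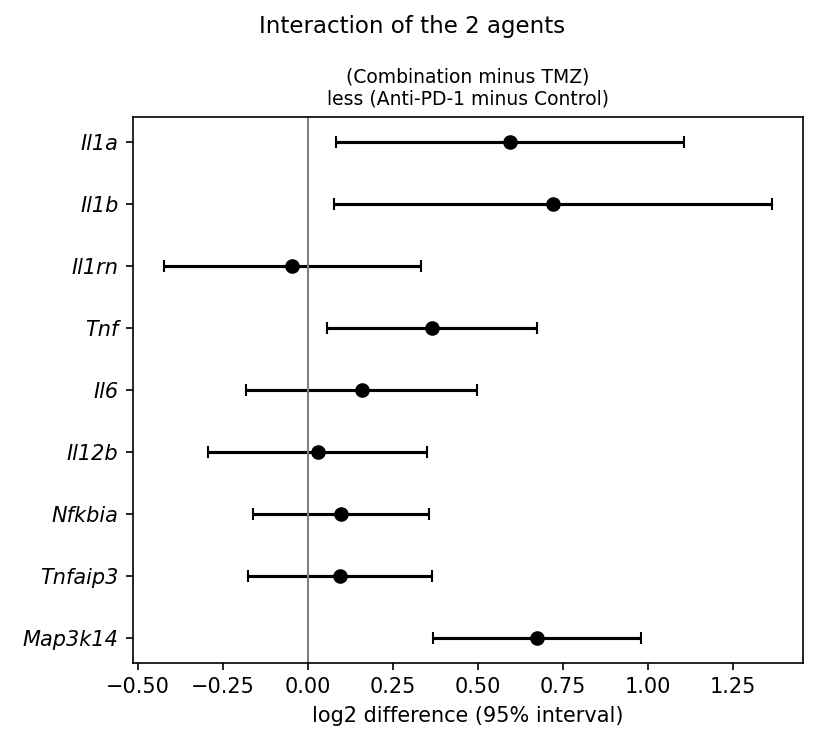
Interaction of the 2 agents for the 9 genes, in log2 units (x axis; points are limma estimates over 12 arrays, bars 95% intervals). Map3k14, Il1b, Il1a and Tnf have intervals above 0 before adjustment, and none passed after adjustment over all genes.

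Other genes of the pathway gave the same kind of result, 0 called with all 12 arrays in any comparison with Control. Among 12 measured NF-kB subunit and kinase genes, 0 passed. Nfkb2, the precursor that NIK acts on, had log2 signals from 5.33 to 5.58 in Combination, 5.38 to 5.68 in TMZ, 5.36 to 5.77 in Anti-PD-1 and 5.70 to 6.09 in Control. It was at -0.43, -0.38 and -0.39 in Combination, TMZ and Anti-PD-1 (limma adjusted p = 0.246, 0.301 and 0.216), so its Combination value stayed low where that of Map3k14 did not. The kinase gene Ikbke was at -0.25, -0.10 and -0.13, and Tab1, a partner of the kinase TAK1, at -0.14, -0.14 and -0.13 (limma adjusted p from 0.222 to 0.633).

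Of 23 other feedback and inhibitor genes 0 passed, with medians of -0.04, -0.09 and -0.08 in Combination, TMZ and Anti-PD-1. Socs3 and Socs1, which damp cytokine receptor signalling, were at -0.41 ± 0.11 and -0.36 ± 0.10 for the mean of the treated groups (SE; limma adjusted p = 0.0987 and 0.11). Bcl3, a nuclear IkB protein, was at -0.45 ± 0.13 (limma adjusted p = 0.122). Socs3 signals were 5.37 to 5.43 in Combination, 5.33 to 5.60 in TMZ, 5.30 to 5.58 in Anti-PD-1 and 5.52 to 6.08 in Control. Without Control replicate 3 it passed against Control in Combination, TMZ and Anti-PD-1, at -0.62, -0.54 and -0.56 (limma adjusted p = 0.0178, 0.0272 and 0.0151).

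Genes listed for the release of these cytokines were below Control more often than not. The list holds 12 genes, inflammasome and shedding genes together with the antisense gene Il1bos. Of these, 10 were lower in Combination, 10 in TMZ and 11 in Anti-PD-1, beside 49.8%, 47.9% and 47.6% of all genes. The medians were -0.12, -0.19 and -0.23, with 0 past the threshold. Casp4, the caspase gene of the noncanonical inflammasome, was at -0.73, -0.75 and -0.76 (limma adjusted p = 0.329, 0.319 and 0.228), with Control arrays spread from 4.41 to 5.70. Without Control replicate 3 it passed in all 3 comparisons, at -1.06, -1.07 and -1.09 (limma adjusted p = 0.0452, 0.0372 and 0.0233). Every treated Casp4 array, at most 4.69, lay under the receptor mark of 4.87, as did the lowest Control array. The size of these differences may therefore not be measurable. Aim2, a sensor of cytoplasmic DNA, had signals of 4.05 to 4.39 in Combination and 4.07 to 4.25 in Control. In TMZ they were 3.71 to 3.90 and in Anti-PD-1 3.71 to 4.07. The Aim2 differences were 0.07, -0.32 and -0.27 (limma adjusted p = 0.855, 0.315 and 0.308). Nlrp1b, another inflammasome sensor gene, was at -0.12, -0.37 and -0.38 (limma adjusted p = 0.738, 0.266 and 0.181). Aim2 and Nlrp1b lay under the receptor mark of 4.87 on every array, so their differences may not be measurable.

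For 10 receptor genes of the member cytokines the medians were -0.03, -0.01 and -0.08 in Combination, TMZ and Anti-PD-1, and for 13 adaptor genes 0.01, -0.04 and -0.03. Those named by the smallest F-test p were the IL-12 and IL-23 receptor genes Il12rb2, Il12rb1 and Il23r and the adaptor genes Ticam1, Myd88 and Tradd. Their lowest adjusted p was 0.209 for the mean of the treated groups minus Control (Ticam1, -0.15), and 0.249 for a single group minus Control (Il12rb2 in Anti-PD-1, -0.31). Il12rb2 and Il23r lay under the receptor mark on every array. Myd88, the adaptor of the IL-1 and most Toll-like receptors, was at -0.24, -0.16 and -0.45 (limma adjusted p = 0.634, 0.78 and 0.289).

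Of 22 other cytokine genes, 16, 16 and 17 were lower in Combination, TMZ and Anti-PD-1, with medians of -0.09, -0.07 and -0.07. Tnfsf9, the ligand of the costimulatory receptor 4-1BB, was at -0.44, -0.14 and -0.30, Tgfb1, the gene of TGF-beta 1, at -0.14, -0.24 and -0.36, and the macrophage growth factor gene Csf1 at -0.09, -0.25 and -0.26. None passed (limma adjusted p from 0.167 to 0.762), and Tnfsf9 lay under the receptor mark on every array. For 16 genes of the NIK route, 15, 12 and 12 were lower. Of all genes, 49.8%, 47.9% and 47.6% were lower in the same comparisons. Tnfrsf12a, the receptor of TWEAK, was at -0.57, -0.29 and -0.39 (limma adjusted p = 0.175, 0.458 and 0.239), and Ltbr, the lymphotoxin beta receptor gene, at -0.22, -0.13 and -0.12. Without Control replicate 3, limma also called Tnfrsf12a in Combination (-0.69) and Tgfb1 (-0.45) and Csf1 (-0.37) in Anti-PD-1, and Nfkb2 (-0.50), Csf1 (-0.31) and Tnfrsf12a (-0.54) in the mean of the treated groups. Leaving out any other array called no gene of these lists against Control.

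Control replicate 3 stands apart from the other Control arrays, which touches every comparison with Control. Of the 9 members, 8 lay above their own 12-array mean on Control replicate 1 and 9 on replicate 2, but 4 on replicate 3. The treated arrays had 2 to 7. Without Control replicate 3 limma called 1.27% of all genes in Combination, 1.64% in TMZ, 3.09% in Anti-PD-1 and 3.78% for the mean of the treated groups, against 0%, 0.0992%, 0.293% and 0.888% with it. Members called were then 0, 0, 1 (Il1b) and 1 (Tnf). No label gives a reason to leave this array out.

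**Figure D4:**
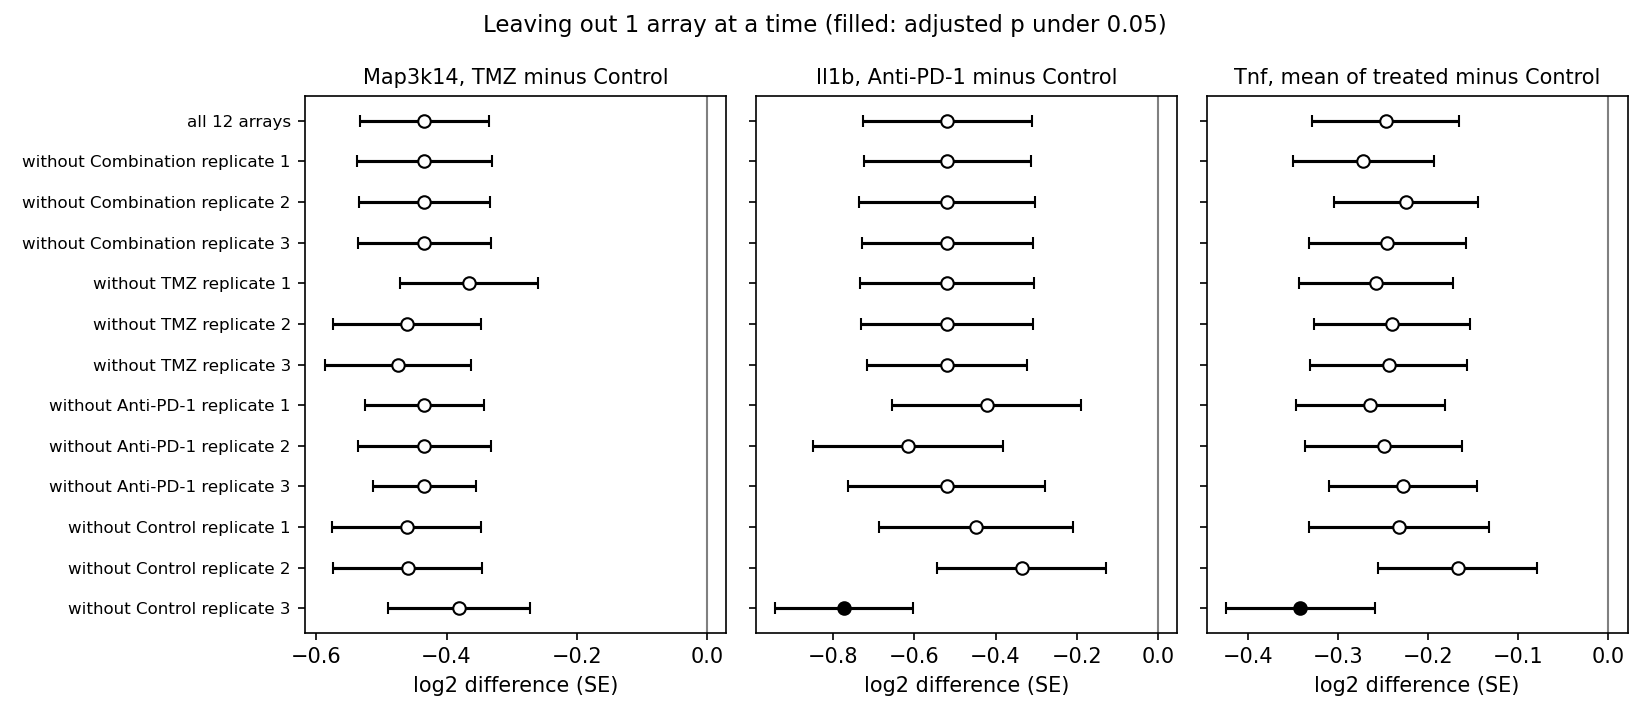
Log2 difference from Control with all 12 arrays and with each array left out in turn, for Map3k14 in TMZ, Il1b in Anti-PD-1 and Tnf in the mean of the treated groups (x axis; bars are SE, filled points have a limma adjusted p under 0.05). Il1b and Tnf pass without Control replicate 3, and Map3k14 keeps a value between -0.48 and -0.37. Il1b lay above the receptor mark on 0 arrays and Tnf on 1.

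In bulk tumour RNA, fewer cells of a type and less RNA per cell cannot be told apart, so markers of the cells that could make these cytokines were measured beside them. Scores are the mean log2 deviation of a marker list from its 12-array means. Microglia scores (11 markers) averaged 0.02 in Combination, -0.10 in TMZ, -0.05 in Anti-PD-1 and 0.13 in Control. Their mean log2 level ranged from 6.84 to 6.91, 6.60 to 6.90, 6.74 to 6.86 and 6.88 to 7.04 in the same order, and all 11 markers were below Control in TMZ and in Anti-PD-1. Scores of monocytes and blood-derived macrophages (12 markers) averaged 0.01, -0.04, -0.17 and 0.19, with Control replicates 1 and 2 at 0.30 and 0.34 and replicate 3 at -0.06. Their mean level ranged from 5.18 to 5.42, 5.12 to 5.44, 5.04 to 5.24 and 5.23 to 5.63. Ccr2, Chil3, Plac8 and Ms4a7 of that list were never above the receptor mark. Limma called 1 microglia marker, Olfml3, lower in the mean of the treated groups (-0.38, adjusted p = 0.0368), and 1 of the monocyte list, Plac8, lower there (-0.48, adjusted p = 0.0296) and in Anti-PD-1 (-0.69, adjusted p = 0.0326).

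Dendritic cell scores (9 markers) averaged -0.05 in Combination, -0.04 in TMZ, -0.02 in Anti-PD-1 and 0.10 in Control, and T cell scores (9 markers) -0.03, -0.06, -0.02 and 0.10. Of the T cell markers, Cd3d, Cd3g, Cd8a and Cd2 were never above the receptor mark. Of 10 neutrophil markers, 8 were never above the receptor mark, the granule and calprotectin genes S100a8, S100a9, Ngp and Camp among them. Scores of dividing cells (7 markers) averaged -0.19, -0.24, -0.31 and 0.73, with Control replicate 3 at 0.29 beside 0.90 and 0.995 on replicates 1 and 2. Of these 7, limma called 0 lower in Combination, 1 in TMZ, 3 in Anti-PD-1 and 6 in the mean of the treated groups. All 12 neuron, 8 astrocyte and 7 measured oligodendrocyte markers were above the mark on every array, so the samples held brain tissue as well as tumour. Endothelial scores (8 markers) ran the other way, averaging 0.02 in Combination, 0.16 in TMZ, 0.00 in Anti-PD-1 and -0.18 in Control. Of the 8 markers, 8, 8 and 7 were above Control in Combination, TMZ and Anti-PD-1, and limma called 0. Neuron scores (12 markers) averaged -0.01, 0.01, 0.04 and -0.03 in Combination, TMZ, Anti-PD-1 and Control, with 11 of 12 markers above Control in Anti-PD-1 and 0 called. The part of cell content in the member differences was not tested. With the neuron score as a covariate Il1b in Anti-PD-1 was at -0.27, beside -0.52 without it. Map3k14 was at -0.51 in TMZ, beside -0.43, and Nfkbia at -0.27 in Combination, beside -0.26. Neuron scores ranged from 0.017 to 0.056 in Anti-PD-1 and from -0.066 to 0.004 in Control, without overlap. In Anti-PD-1 minus Control, neuron content and treatment therefore cannot be told apart.

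**Figure D5:**
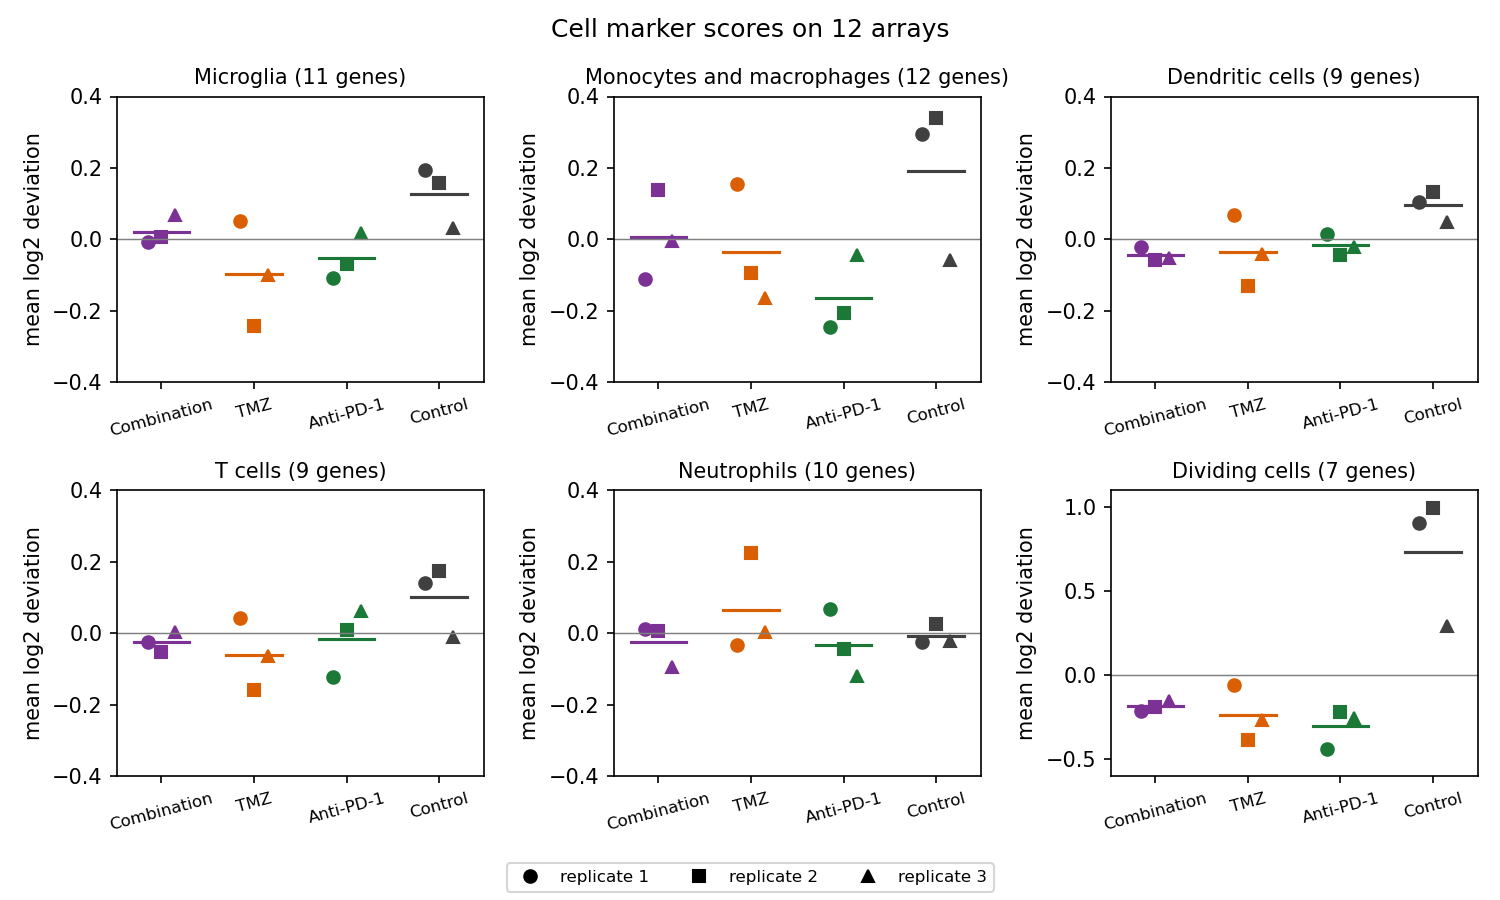
Marker scores of 6 cell types (y axis, mean log2 deviation from the 12-array mean; the dividing cell panel has a wider axis) in Combination, TMZ, Anti-PD-1 and Control. Points are arrays, shapes replicate numbers and lines group means. Control replicate 3 lies below Control replicates 1 and 2 for microglia, monocytes, dendritic cells, T cells and dividing cells.

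The genes whose signals ran most like each member over the 12 arrays were taken by Pearson correlation among 17248 named genes, as a description. All points share the same arrays. Each r is among the highest of 17248 over only 12 arrays, so values of this size can arise between unrelated genes. No likeness was tested. Closest to Map3k14 were the serine/threonine kinase gene Pim2 (r = 0.875), the nucleotide receptor gene P2ry2 (0.873) and the acute-phase gene Orm1 (0.87). Closest to Il1b were Rtcb (0.939), Coq4 and the annexin gene Anxa3, and closest to Tnf were Pofut2 (0.925), Ormdl2 and E2f8, a repressor of cell cycle genes. Il1a ran closest to Wdr91 (0.907), Tvp23b and Plin2, the last a coat protein gene of lipid droplets. Nfkbia ran closest to Peg12 (0.915), Ppp1r18 and Nppb, and Tnfaip3 to Klk1b11 (0.923), Fsip2l and Arhgap8. Il1rn ran closest to Alkal2 (0.900), Frk and Kbtbd7, Il6 to Bop1 (0.908), Asmt and Armc10, and Il12b to Stra6l (0.916), Sh3d21 and Lyg2. Of the genes named, Orm1, E2f8, Frk, Nppb, Fsip2l, Sh3d21 and Lyg2 had mean signals under the receptor mark. No member was among the closest of another by construction, since members were left out of the comparison.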

How the data were processed

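Gene expression was measured on 12 Affymetrix mouse arrays, 3 per group. The deposited values are log2 signals for 41345 probe sets, made by the authors with RMA in the Affymetrix Expression Console, per the submitters' processing notes, which give no version. They range from 1.24 to 13.14, with array medians from 5.06 to 5.12. RMA quantile normalises the arrays, which removes shifts common to all genes. Precision is limited by the 3 arrays per group, since an array has no depth of reads.

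The annotation named 1 symbol for 23521 probe sets, several for 1814 and did not list 16010, and only the first were used. Of these, 23328 matched a mouse annotation by gene number and 0 symbols changed. The probe set with the highest mean stood for a gene. Limma 3.58.1 in R 4.3.3 fitted a mean per group over 12 arrays (8 residual degrees of freedom). All 9 members are named. Pathway genes named are those past the threshold and the 3 with the smallest F-test p per list. Members and lists were chosen with earlier results of these data known. The fit was tested on simulated data. Figures were drawn with matplotlib 3.10.9. Alternatives were a variance trend, array weights, all probe sets, a brightness filter, median centring, averaged probe sets, only the compared groups, a neuron covariate, a replicate block and each array left out. The list counts without single arrays were chosen after seeing the data.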

Additional observations from a re-analysis of the deposited data

How the results depend on the processing

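Counts of members called stayed at 0 under all alternatives, except without Control replicate 3, where 1 was called in Anti-PD-1 and 1 in the mean of the treated groups (0 to 1 over the arrays left out in turn, for both). Of 883 alternative values of 44 member results, 870 kept direction and side of the threshold. The 44 were all member differences from Control, plus those results of the other tests with an unadjusted p under 0.05. As no member passed with all arrays, the side of the threshold could change only through a new pass. The count is therefore a weak measure of stability. Below 0 with all arrays, Il1rn in Anti-PD-1 was 0.065 with the neuron covariate, and Map3k14 in Combination was 0.0032 with median centring. Leaving out single arrays (Control replicates 2 and 3, TMZ replicate 2, Anti-PD-1 replicate 3 or Combination replicate 2) turned the sign of 6 small differences from Control. These were Il1rn in TMZ (-0.20 to 0.047), in Anti-PD-1 (-0.16 to 0.083) and in the mean of the treated groups (-0.22 to 0.029), Tnfaip3 in TMZ (-0.046 to 0.11), and Il1b (-0.40 to 0.034) and Map3k14 (-0.048 to 0.033) in Combination. Adjusted p for Map3k14 in TMZ ranged from 0.097 to 0.40. The brightness filter removed 6 members, Il1a, Il1b, Il1rn, Tnf, Il6 and Il12b, and gave them no value.

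Counts over all genes moved more: for TMZ 22 with all arrays, 0 to 113 under other settings and 0 to 363 without 1 array, and for Anti-PD-1 65, 0 to 381 and 1 to 686. For Combination they were 0, 0 to 42 and 0 to 282, for the mean of the treated groups 197, 0 to 677 and 1 to 838, for the interaction 1, 0 to 12 and 0 to 198, and for the F test 1, 0 to 90 and 0 to 245. The replicate block called 0 members in all comparisons, with 4 genes in TMZ, 20 in Anti-PD-1 and 5 in the F test. Same-numbered arrays correlated between -0.16 and 0.16 in their deviations from group means, and 1 of 18 pairs exceeded 0.1, so the numbers were not taken as pairs. The causes of these changes were not tested.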
